A study of Rattus norvegicus with 22 samples.

Results

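The genes of the mitochondrial genome were the 37 entries of the gene expression table whose position lies on the MT sequence, out of 32623 genes in all. They comprised 13 coding genes, 2 ribosomal RNA (rRNA) genes and 22 transfer RNA (tRNA) genes, and were chosen by position alone. The table holds counts for 22 bulk mRNA libraries, 10 from epididymal fat and 12 from gastrocnemius, the large calf muscle, of obese male Sprague Dawley rats. Every rat was 3 weeks old when bought and was first made obese over several weeks of high-fat feed. Only after that did it spend 4 weeks under its intervention, so it was no longer 3 weeks old when treatment began. The controls share the diet and the obesity, and no lean rat enters these comparisons. The quiet groups did not train and lived under normal oxygen (C) or low oxygen (H), and the exercise groups ran on a treadmill under normal oxygen at 25 m/min (CE) or under low oxygen at 20 m/min (HE). HE and CE therefore differed in speed as well as in oxygen, and their contrast cannot tell these apart. F and M before these letters mark fat and muscle: FC (n = 3), FCE (n = 3), FH (n = 2), FHE (n = 2) and MC, MCE, MH and MHE (n = 3 each). Some fat samples were left out by the study because of RNA quality. The methods count 22 rats for these 22 libraries, and each library was taken as 1 rat. No label ties a library to a rat, so fat and muscle libraries may share rats, which the fits across tissues do not model. The p-values measure only the spread between these libraries, part of which may be technical.

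The mitochondrial genome is a small circular DNA present in many copies in each cell. Its proteins are core subunits of the respiratory chain, which passes electrons from complex I through complex III to complex IV, and of the ATP synthase, complex V, and all other subunits come from nuclear genes. Both strands are transcribed as long precursors that are cut mainly at the tRNAs lying between many of the coding genes. Most of the resulting mRNAs carry poly(A) tails, which brings them into an mRNA library. Skeletal muscle is known for a high content of mitochondria, and white fat such as the epididymal depot for a low one.

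The 13 coding genes covered 11407 bases in all. The complex I subunits were Mt-nd1, Mt-nd2, Mt-nd3, Mt-nd4l, Mt-nd4, Mt-nd5 and Mt-nd6, the complex III subunit was Mt-cyb, the complex IV subunits were Mt-co1, Mt-co2 and Mt-cox3, and the complex V subunits were Mt-atp8 and Mt-atp6. Mt-nd6 (MT 13543 to 14061) was the only coding gene on the minus strand, and 8 of the 22 tRNA genes were on that strand too. The other 24 members carried accession-type names and no gene name. AY172581.9 (MT 68 to 1025, 958 bases) and AY172581.24 (MT 1094 to 2664, 1571 bases) were taken as the smaller and larger rRNA genes by their length, and the remaining 22, of 60 to 75 bases, as the tRNA genes. Positions are those of Ensembl release 99. Mt-atp8 (MT 7758 to 7961) and Mt-atp6 (MT 7919 to 8599) shared 43 bases, Mt-nd5 and Mt-nd6 shared 23 on opposite strands, and Mt-nd4l and Mt-nd4 shared 7. How reads in these overlaps were counted is not given in the sources used here, nor is the treatment of reads that also match copies of mitochondrial DNA in the nuclear genome, so the values of these neighbours are uncertain to that extent.

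The libraries held between 27149905 (MC1) and 44334313 (FHE3) counts. At this depth the 95% Wilson interval of a library's mitochondrial share was 0.0109 to 0.0324 percentage points wide, which covers counting error only and is far below the spread between libraries. The nuclear genes were left with 20060028 to 36162561 counts in fat and 841153 to 4334813 in muscle, so a nuclear gene was measured less precisely in muscle. The summed level of 10 adipocyte marker genes was 25690 to 62627 per 1000000 nuclear counts in fat and 1085 to 2291 in muscle, and that of 13 skeletal muscle fibre genes was 50787 to 114161 in muscle. Among the fat libraries the muscle fibre genes summed to 8.16 to 74.2 in 8, to 1646 in FCE2 and to 30217 in FHE3. FCE2 and FHE3 thus stood apart in muscle transcripts, and FH3 in its mesothelial marker sum, 1205 against 15 to 154 in the other fat libraries, and in the lowest adipocyte sum. In the paper's read placement FH3 also had the lowest exon share and the highest intron share of all libraries.

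Mitochondrial transcripts took most of the counts of every muscle library and a smaller part of those of every fat library. The share of the 37 genes in total counts was 93.4%, 96.9% and 90.3% in MC1, MC2 and MC3, and 91.5%, 96.6% and 92.9% in MCE1, MCE2 and MCE3. It was 93.2%, 89.4% and 97.4% in MH1, MH2 and MH3, and 92.3%, 91.9% and 96.0% in MHE1, MHE2 and MHE3. The 4 muscle groups overlapped throughout, and the MC mean was 93.5% ± 3.28 (SD, n = 3), the MCE mean 93.7% ± 2.64, the MH mean 93.3% ± 3.98 and the MHE mean 93.4% ± 2.30. In fat the share was 15.1%, 16.7% and 15.8% in FC1, FC2 and FC3, and 14.3%, 22.6% and 10.1% in FCE1, FCE2 and FCE3. FH1 and FH3 were at 11.6% and 10.3%, and FHE2 and FHE3 at 44.7% and 40.7%. Both FHE libraries therefore lay above the other 8 fat libraries, both FH libraries lay below the 3 FC libraries, and the FCE libraries spanned the FC and FH values. The group means were 15.9% ± 0.785 (SD, n = 3) in FC, 15.7% ± 6.35 in FCE, 10.9% ± 0.919 (n = 2) in FH and 42.7% ± 2.84 (n = 2) in FHE. These shares are sums over the members and were given no test.

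**Figure D1:**
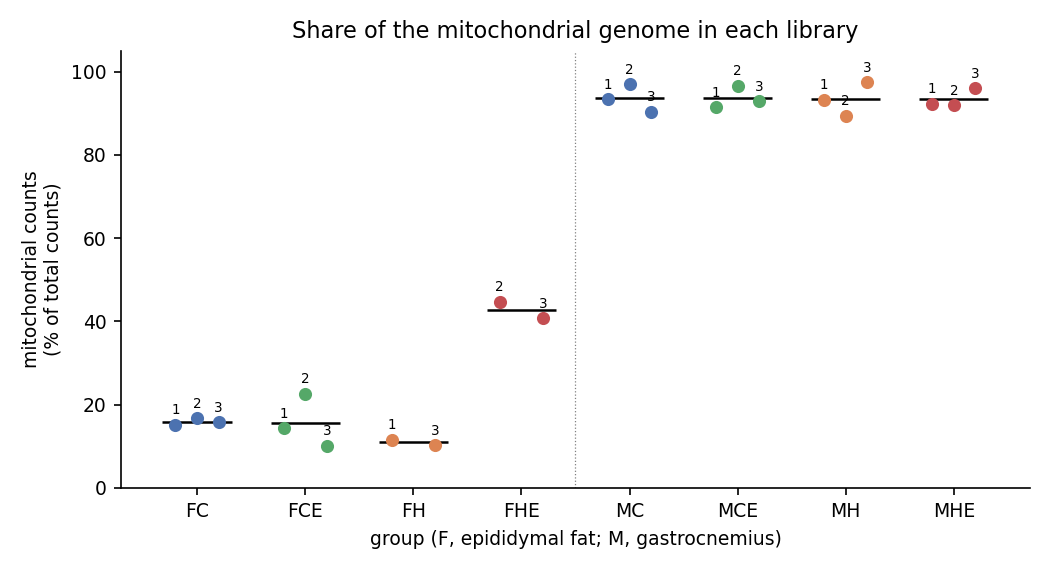
Share of the 37 mitochondrial genes in total counts (y axis, %) for each of the 22 libraries by group (x axis). Points are libraries with their replicate number and bars are group means. The 2 FHE libraries sit at 44.7% and 40.7%, the other fat libraries at 10.1% to 22.6%, and the muscle libraries at 89.4% to 97.4%.

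A share near its ceiling hides differences that the ratio to nuclear counts shows. There were 8.45 (MH2) to 37.3 (MH3) mitochondrial counts per nuclear count in muscle, so libraries whose shares differed by a few percentage points differed by several fold on this scale, within 1 group. The MC mean of this ratio was 18.3 ± 11.6 (SD, n = 3), the MCE mean 17.4 ± 9.57, the MH mean 19.8 ± 15.3 and the MHE mean 15.8 ± 7.30. In fat the ratio was 0.178, 0.20 and 0.187 in FC1, FC2 and FC3, and 0.168, 0.291 and 0.112 in FCE1, FCE2 and FCE3. It was 0.131 and 0.114 in FH1 and FH3, and 0.809 and 0.687 in FHE2 and FHE3. The mean ratio in FHE was 6.11 times that in FH, 3.93 times that in FCE and 3.97 times that in FC. In bulk tissue, more cells rich in mitochondria and more mitochondrial RNA per cell cannot be told apart.

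The composition of the mitochondrial counts was alike in broad outline in both tissues. Coding genes took 97.4% to 99.2% of them in fat and 97.6% to 98.7% in muscle. The rRNA genes took 0.727% to 2.48% in fat and 1.21% to 2.24% in muscle, and the tRNA genes 0.0519% to 0.165% and 0.113% to 0.154%. Mature rRNAs and tRNAs are far more abundant in cells than this, but they lack the long poly(A) tails that an mRNA library selects. FHE2 and FHE3 were low in both classes, with rRNA shares of 0.997% and 0.727% and tRNA shares of 0.0519% and 0.0971%. FCE2 lay between them for the rRNA share, at 0.852%, and below FHE3 for the tRNA share, at 0.0920%.

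Compared per length, on the scale of transcripts per 1000000 (TPM), the genes spanned a wide range within the same genome. In muscle Mt-co1, the catalytic subunit of complex IV, had the highest mean level, 175250 ± 19091 TPM (SD, n = 12), followed by Mt-cox3 at 156265 ± 7983 and Mt-co2 at 122769 ± 10312. Mt-co1 and Mt-cox3 overlapped across the libraries, and Mt-cox3 did not overlap Mt-co2, whose highest library was at 137919 TPM against a lowest of 146528 for Mt-cox3. Mt-atp8 followed at 93099 ± 7805 TPM and Mt-cyb at 76047 ± 3791, and each overlapped the gene before it. Mt-nd1 and Mt-nd2 overlapped at 65398 ± 4148 and 62233 ± 5743 TPM, as did Mt-nd3, Mt-atp6 and Mt-nd4l at 38959 ± 4327, 37827 ± 2383 and 34977 ± 7062. The lowest were Mt-nd4, Mt-nd5 and Mt-nd6 at 26198 ± 3763, 19812 ± 2833 and 12903 ± 1949 TPM. In fat Mt-co1 again had the highest mean, 48427 ± 16390 TPM (SD, n = 10), and Mt-nd5 and Mt-nd6 the lowest, 2365 ± 1609 and 2231 ± 1842. Mt-atp6 was ranked differently in the tissues, with 45325 ± 41833 TPM in fat, and its libraries ranged from 6782 (FCE3) to 116063 (FHE3).

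Complex IV genes took 40.7% to 62.0% of the mitochondrial counts in fat and 51.1% to 61.0% in muscle. Mt-co1 alone took 20.1% (FHE3) to 42.5% (FC3) in fat and 27.5% to 37.8% in muscle. Complex I genes took 21.0% to 29.3% in fat and 22.9% to 30.4% in muscle. Mt-cyb, the core of complex III, took 8.60% to 11.3% in fat and 9.06% to 11.6% in muscle. The shares of 34 of the 37 genes overlapped between the tissues.

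The 3 that did not overlap were Mt-nd1, Mt-nd5 and the tRNA gene AY172581.20. Mt-nd1, the first coding gene behind the rRNAs, took 8.17% to 13.1% of the mitochondrial counts in fat and 6.56% to 8.13% in muscle. Mt-nd5, the longest coding gene and the most distant complex I gene on the plus strand, took 0.989% to 2.72% in fat and 3.17% to 5.33% in muscle. The number of Mt-nd5 counts per Mt-nd1 count was thus 0.0756 to 0.307 in fat and 0.484 to 0.733 in muscle. FHE2 was at 0.131 and FHE3 at 0.257, both inside the range of the other fat libraries and below every muscle library. AY172581.20 (MT 14062 to 14130), next to Mt-nd6 on the minus strand, had 42.0 to 109 counts per 1000000 mitochondrial counts in fat and 125 to 233 in muscle. Mt-nd6 overlapped only through FHE3: it took 0.289% to 0.506% in 9 fat libraries, 0.816% in FHE3 and 0.654% to 0.967% in muscle. These are descriptions of shares, which sum to a fixed total, so a higher share of 1 gene lowers the others.

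**Figure D2:**
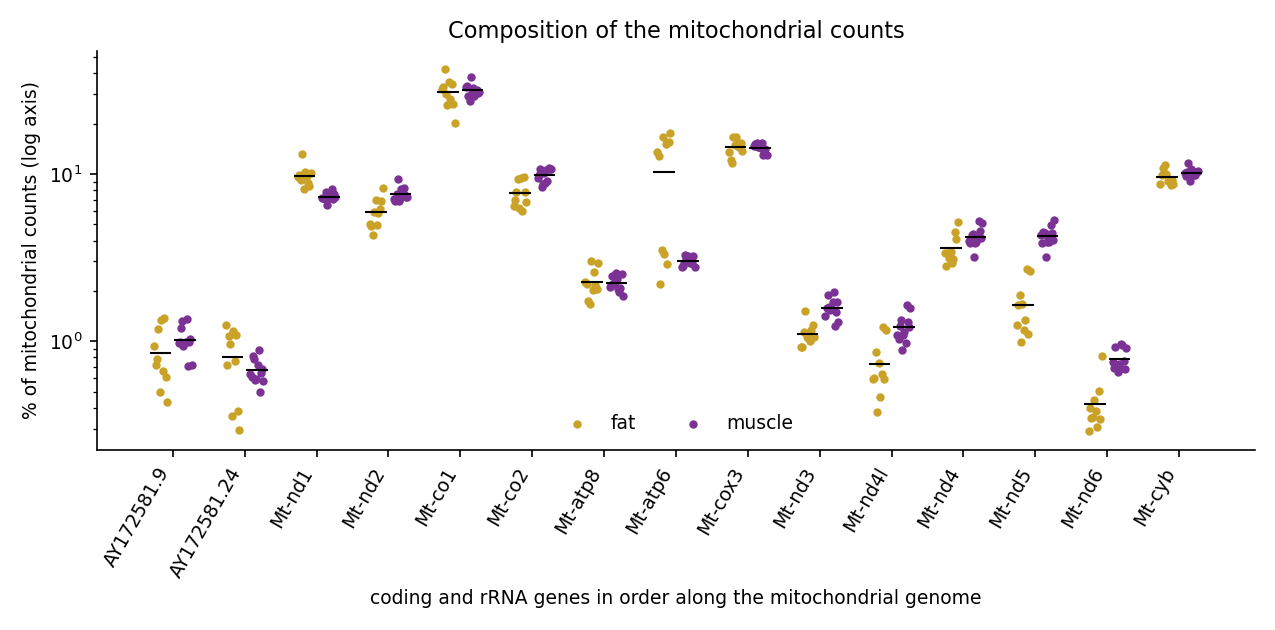
Share of each coding and rRNA gene in the mitochondrial counts (y axis, %, log axis), with the genes in their order along the mitochondrial genome (x axis). Points are libraries of fat (n = 10) and muscle (n = 12) and bars are tissue means. Mt-nd5 is higher in every muscle library (3.17% to 5.33%) than in any fat library (0.989% to 2.72%), and Mt-atp6 falls into separate clouds in fat and 1 narrow cloud in muscle.

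The pairs of neighbours also differed in their ratio. Mt-nd4 had 3.71 to 8.38 counts per Mt-nd4l count in fat and 3.21 to 4.22 in muscle. Both proteins are read from 1 shared mRNA in mammals, and Mt-nd4 is the longer gene, with 1378 bases against 297. Mt-nd5 had 2.80 to 5.39 counts per count of Mt-nd6 in fat and 4.03 to 6.39 in muscle. The larger rRNA gene had 0.626 to 1.36 counts per count of the smaller one in fat and 0.588 to 0.798 in muscle, with all 3 FC libraries (1.34, 0.991 and 1.36) above every muscle library. The ranges overlapped between the tissues for each of these ratios. They are ratios of raw counts and were not corrected for gene length.

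Mt-atp6, the subunit of the ATP synthase that forms its proton channel, was the coding gene whose share varied most among the fat libraries relative to its mean. Its SD was 6.47 percentage points around a mean of 10.3%. Mt-co1 had an SD of 6.24 around 30.8%, and a wider range. The Mt-atp6 share of the mitochondrial counts was 13.6%, 12.8% and 2.20% in FC1, FC2 and FC3, and 3.53%, 16.7% and 3.32% in FCE1, FCE2 and FCE3. It was 15.0% and 2.89% in FH1 and FH3, and 15.6% and 17.6% in FHE2 and FHE3. FC, FCE and FH each held both high and low libraries, and FHE held 2 high ones. In muscle the share was 2.76% to 3.27% in all 12 libraries, and the MC mean was 2.84% ± 0.0683 (SD, n = 3), the MCE mean 3.2% ± 0.0929, the MH mean 3.03% ± 0.120 and the MHE mean 2.98% ± 0.245. The 3 MCE libraries (3.27%, 3.10% and 3.24%) lay above the 3 MC libraries (2.78%, 2.82% and 2.92%), and MH and MHE overlapped MCE. How many other shares separated muscle groups in this way was not counted.

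As a share of total counts, Mt-atp6 took 2.06%, 2.13% and 0.347% in FC1, FC2 and FC3, and 0.507%, 3.77% and 0.335% in FCE1, FCE2 and FCE3. It took 1.74% and 0.296% in FH1 and FH3, 7.0% and 7.16% in FHE2 and FHE3, and 2.60% to 3.08% in muscle. Mt-atp6 alone thus took a larger part of the FHE libraries than of any muscle library, although the whole mitochondrial genome took less than in muscle. On library totals, as a net sum over the members, FH1 and FH3 no longer differed in mitochondrial share without this gene. Single other members still differed between them. Without Mt-atp6 in the mitochondrial and total counts, an alternative chosen after seeing the data, FH1 and FH3 were both at 9.99%.

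The neighbours of Mt-atp6 did not vary to the same extent. There were 1.0 and 1.06 Mt-atp6 counts per Mt-cox3 count in FC1 and FC2, 1.12 in FCE2, 0.988 in FH1, and 1.02 and 1.28 in FHE2 and FHE3. The other 4 fat libraries were at 0.188 (FC3), 0.212 (FCE1), 0.20 (FCE3) and 0.198 (FH3), inside the muscle range of 0.187 to 0.244. No library fell between 0.244 and 0.988. Mt-atp8, which overlaps the start of Mt-atp6 and is read from the same mRNA, had 0.10 to 0.215 counts per Mt-cox3 count in fat and 0.133 to 0.178 in muscle. Mt-atp6 accordingly had 5.52 to 7.65 counts per Mt-atp8 count in the 6 high libraries and 1.19 to 2.12 in the other 16. These are ratios of raw counts, and Mt-atp6 has 681 bases, Mt-cox3 784 and Mt-atp8 204. Mt-atp6 and Mt-cox3 are thus of similar length. Per base, Mt-atp6 was near Mt-cox3 in the 6 high libraries and far below it in the other 16. The 6 high libraries did not share a treatment: they were FC1, FC2, FCE2, FH1, FHE2 and FHE3. By replicate number, FC2, FCE2 and FHE2 were all high. FC3, FCE3 and FH3 were low but FHE3 was high, and FC1 and FH1 were high but FCE1 was low. No source states what this number marks, and its part in the split was not tested. No label or header named an extraction or sequencing batch.

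**Figure D3:**
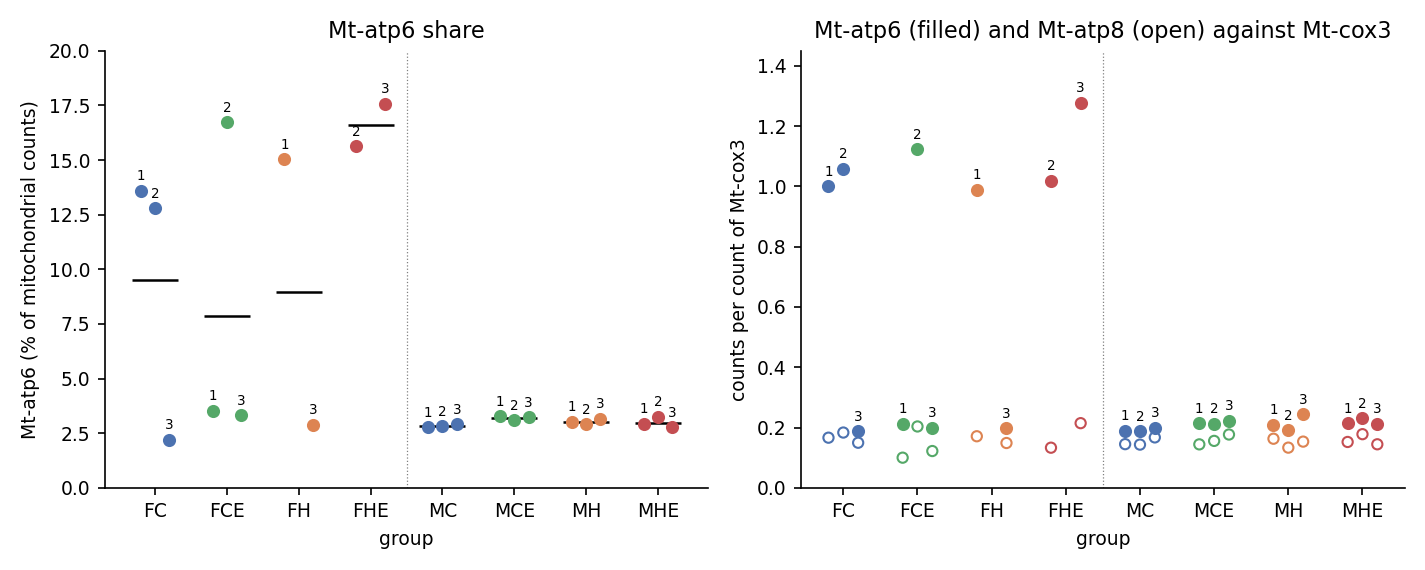
Left, Mt-atp6 as a share of mitochondrial counts (y axis, %) in each library by group, with group means as bars. Right, counts of Mt-atp6 (filled) and Mt-atp8 (open) per count of Mt-cox3 in the same libraries. Mt-atp6 is at 0.988 to 1.28 counts per Mt-cox3 count in 6 fat libraries and at 0.187 to 0.244 in the other 16, whereas Mt-atp8 ranges from 0.10 to 0.215 without such a gap.

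The fat of hypoxia exercise rats held the highest mitochondrial levels of the fat groups. The fits used counts scaled by TMM, which sets libraries to a common level of typical genes, and a gene counts as called under an adjusted p of 0.05 in edgeR's quasi-likelihood test with Benjamini-Hochberg adjustment over all genes tested. AY172581.13, with 3 to 45 counts a library, did not pass the filter on low counts in fat, which leaves 36 members tested there. In FHE against FH all 13 coding genes had positive log2 fold changes, with 2.78 as their median and a range of 2.41 (Mt-co1) to 3.48 (Mt-atp6), beside -0.07 for all genes tested. None of the 36 members was called by edgeR, where 0% of all 16364 genes were called. 30 of 36 members were at an unadjusted p under 0.05, against 16.8% of all genes. DESeq2 called 24 of the 34 members it gave an adjusted p, and 6.82% of all genes. Mt-atp6 was not among the 34. In 35 of the 36 both FHE libraries lay above both FH libraries, which held for 19.5% of all genes.

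Single members show the size of this difference. Mt-co2, which carries the copper centre that takes electrons from cytochrome c, was at 51001 and 38031 TMM-scaled counts per 1000000 (CPM) in FHE2 and FHE3 and at 6384 and 6565 in FH1 and FH3. FCE1, FCE2 and FCE3 were at 13850, 15553 and 8124 CPM and FC1, FC2 and FC3 at 10000, 11192 and 10697. The FHE values did not overlap those of any other fat group, and both FH values lay below all others. Against FH this was 2.78 on the log2 scale (SE 0.43), at an unadjusted p of 9.2e-05 and an adjusted p of 0.202 in edgeR. Mt-nd6, the complex I subunit of the minus strand, was at 2242 and 4537 CPM in FHE2 and FHE3, 323 and 346 in FH1 and FH3, 528, 1107 and 327 in FCE1, FCE2 and FCE3, and 446, 637 and 479 in FC1, FC2 and FC3. Against FH the difference was 3.34 (log2, SE 0.60), with 0.202 as edgeR's adjusted p. AY172581.20 beside it had the smallest p of the members, with 43.6 and 60.4 CPM in FHE2 and FHE3 and 4.43 and 5.80 in FH1 and FH3. Its difference was 3.34 on the log2 scale (SE 0.43), and edgeR gave an adjusted p of 0.127.

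Mt-atp6 had the largest fold change of the members and the widest error of the coding genes. Its level was 101933 and 97745 CPM in FHE2 and FHE3 and 15872 and 1975 in FH1 and FH3. The log2 difference, 3.48, carried an SE of 1.48, with an adjusted p of 0.283 in edgeR. The other coding genes had an SE of 0.43 to 0.70. The Mt-atp6 difference was 5.67 without FH1 and 2.65 without FH3. The rRNA genes were less far apart, with log2 fold changes of 1.96 (SE 0.39) for AY172581.9 and 1.43 (SE 0.39) for AY172581.24, and the 21 tRNA genes had a median of 1.85.

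The other 2 contrasts of FHE share its libraries and gave the following values of their own. Against FCE, all 36 members were higher, with a median of 1.93 for the coding genes beside -0.05 for all genes tested. edgeR called 0 of 36 members, where 0% of all genes were called, and 32 were at an unadjusted p under 0.05, against 11.4% of all genes. DESeq2 called 20 of 35, and 3.02% of all genes. In 33 members both FHE libraries lay above all FCE libraries, against 13.8% of all genes. Against FC, 32 of 36 members were higher, with a median of 2.24 for the coding genes beside -0.05 for all genes tested. edgeR called 0 of 36, where 0.141% of all genes were called, and 26 were at an unadjusted p under 0.05, against 20.1% of all genes. DESeq2 called 24 of 34, and 11.6% of all genes. In 29 members both FHE libraries lay above all FC libraries, against 19.5% of all genes. The smallest adjusted p, 0.0505, was that of AY172581.20 (log2 fold change 2.35, SE 0.35), followed by 0.0662 for Mt-co2 (2.07, SE 0.36) and Mt-nd4 (2.53, SE 0.46). Without FCE2 the count of called members was 3: Mt-nd4l, Mt-nd4 and Mt-nd6. On library totals without TMM the median of all genes moved to -0.94 against FH, -0.57 against FCE and -0.62 against FC, and 31, 36 and 30 of the 36 members were positive.

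**Figure D4:**
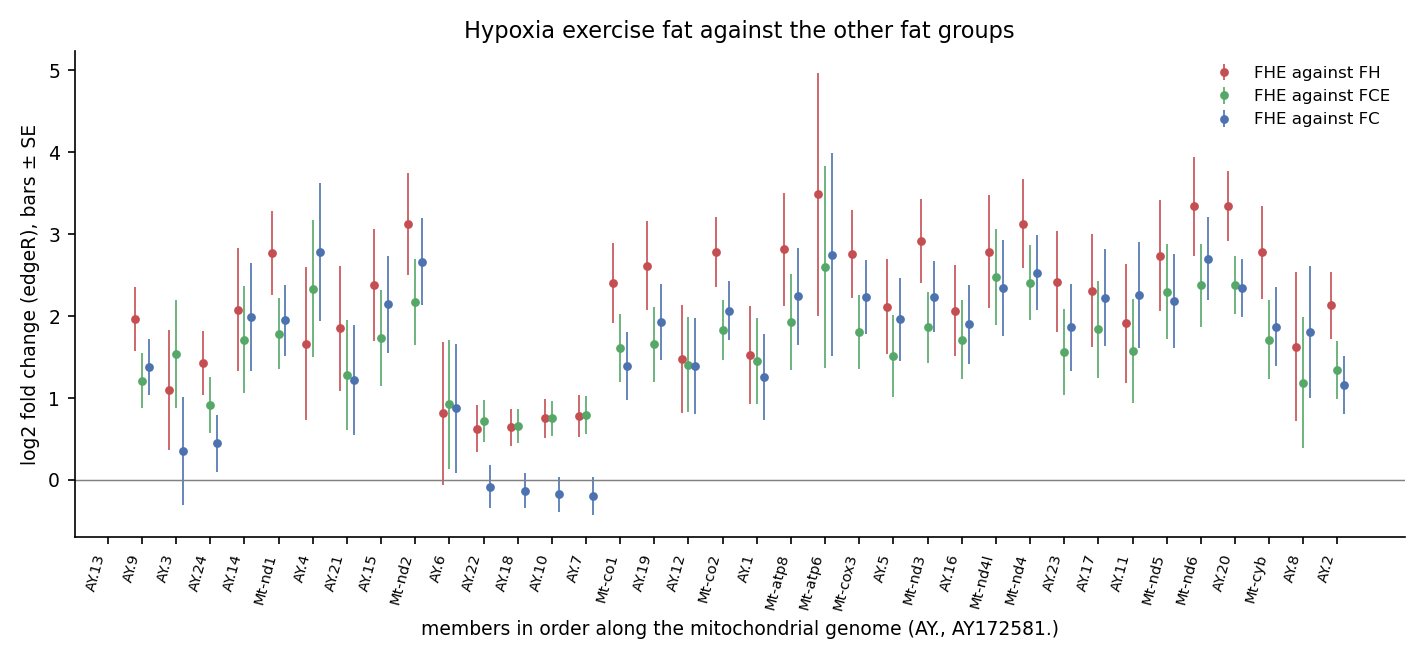
Log2 fold change of each tested member (y axis, bars ± SE from edgeR) in FHE against FH, FCE and FC, with members in their order along the mitochondrial genome (x axis). The coding genes lie at 2.41 to 3.48 against FH, and 4 neighbouring tRNA genes, AY172581.22 to AY172581.7, lie at 0.62 to 0.78 against FH and at -0.20 to -0.08 against FC. AY172581.13 was not tested in fat and has no point.

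Transcripts of muscle fibres were high in 1 of the 2 FHE libraries. The 13 muscle fibre genes summed to 20.1 per 1000000 nuclear counts in FHE2, inside the range of the FC libraries (8.16 to 74.2), and to 30217 in FHE3, with 2 of the 13 at 0 in FHE2 and none in FHE3. Acta1, the actin of skeletal muscle, was at 0.349 per 1000000 nuclear counts in FHE2 and 7031 in FHE3, and 17981 to 44367 in muscle. FHE2, with the low muscle sum, had the higher mitochondrial share of both. Without FHE3 the coding median was 2.92 against FH, 1.98 against FCE and 2.10 against FC, and without FHE2 it was 2.96, 2.07 and 2.38. Without FHE3 and FCE2 together, a choice made after seeing the data, it was 2.92, 2.40 and 2.11. FCE2, the fat library next in muscle transcripts, had the highest mitochondrial share of the remaining fat libraries, and the contrast with FCE was 2.80 without it. The summed adipocyte markers were at 46665 and 44884 in FHE2 and FHE3, inside the FC range of 44468 to 58032. The brown and beige adipocyte markers summed to 50.9 and 57.2, beside 53.3 to 100.3 in FC. Of these 8 genes, 6 were at 0 in FHE2 and 2 in FHE3, beside 4 to 5 in FC. Cox8b, which is also a muscle isoform, made up 25.5 of the sum in FHE3. The 9 fibroblast markers were lower, with 3730 to 4245 per 1000000 nuclear counts in FHE, 4431 to 7952 in FC, 6665 to 9835 in FCE and 9298 to 10615 in FH. The T cell markers summed to 58.9 and 52.0 in FHE2 and FHE3, beside 133 and 382 in FH1 and FH3, and 0 of 8 were positive in FHE against FH. The macrophage markers summed to 2572 and 1820, beside 2752 and 5802, with 1 of 10 positive, and the mesothelial markers to 115 and 79.1, beside 154 and 1205, with 0 of 9 positive. Against FC, where the mesothelial sum was 15 to 22.3, all 9 mesothelial genes tested were positive in FHE. The part of these cells in the result was not tested. Ucp1, the uncoupling protein that defines brown fat, had 0 counts in all libraries, which allows up to 0.15 per 1000000 nuclear counts in fat.

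The hypoxic quiet group had lower mitochondrial levels than the normoxia quiet group in fat, without a call by edgeR. In FH against FC all 13 coding genes had negative log2 fold changes, of which -0.64 was the median, beside 0.02 for all genes tested. edgeR called 0 of 36 members, where 0% of all genes were called, and 8 were at an unadjusted p under 0.05 against 4.75% of all genes. DESeq2 called 3 of 35, all lower, and 0.933% of all genes. In 20 members both FH libraries lay below all FC libraries, which held for 8.05% of all genes. Mt-co1 was at 29739 and 23508 CPM in FH1 and FH3 and at 49448, 53516 and 58272 in FC1, FC2 and FC3. The log2 difference was -1.01 (SE 0.44), with an unadjusted p of 0.044 and an adjusted p of 1 in edgeR. Of the markers of other cell types, the mesothelial sum lay above the FC range in both FH libraries, and the T cell and macrophage sums in FH3 alone. The 10 mesothelial markers summed to 154 and 1205 per 1000000 nuclear counts in FH1 and FH3, with 1 of 10 at 0 in each, and to 15 to 22.3 in FC. All 9 mesothelial genes tested were higher in FH, at a log2 median of 4.64, and 7 had an unadjusted p under 0.05. The T cell markers summed to 133 and 382 in FH1 and FH3 and to 89.1 to 175 in FC, with 8 of 8 positive, and the macrophage markers to 2752 and 5802 against 1672 to 2859, with 9 of 10 positive. The adipocyte sum was lowest in FH3, at 25690, and was 52081 in FH1, inside the FC range. The part of these cells in the FH values was not tested.

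Exercise under normal oxygen gave no common direction in fat. In FCE against FC 21 of 36 members were higher, the coding median was 0.16 beside 0.00 for all genes tested, and the coding range was -0.22 to 0.50. edgeR called 0 of 36, where 0% of all genes were called, and 4 were at an unadjusted p under 0.05, against 5.04% of all genes. DESeq2 called 3 of 35, all lower, and 0.416% of all genes. The coding median was -0.28 without FCE2 and 0.50 without FCE3, its limits when each library was left out. The exercise effect under low oxygen minus that under normal oxygen had a coding median of 2.63, with 27 of 36 members at an unadjusted p under 0.05 against 5.21% of all genes, a smallest adjusted p of 0.943 from edgeR and 0 members called where 0% of all genes were. DESeq2 called 17 of 35, and 0.389% of all genes.

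A cluster of 4 minus-strand tRNA genes between Mt-nd2 and Mt-co1 lay outside the range of the coding genes in FCE and in FHE against FC, and inside it in FH against FC. They were AY172581.22 (MT 5010 to 5078), AY172581.18 (MT 5081 to 5152), AY172581.10 (MT 5185 to 5252) and AY172581.7 (MT 5256 to 5321), of which AY172581.18 and AY172581.10 were among the 3 tRNA genes with the highest mean share in both tissues, with AY172581.15 first. These 4 held the 4 members at an unadjusted p under 0.05 in FCE against FC, with log2 fold changes of -0.80 (SE 0.23), -0.78 (SE 0.19), -0.93 (SE 0.19) and -0.99 (SE 0.21) and an adjusted p of 0.923 each from edgeR, while the coding genes were at -0.22 to 0.50. In FH against FC they were at -0.70, -0.77, -0.93 and -0.98, with adjusted p of 0.638 to 0.973 from edgeR, and the coding genes at -1.01 to -0.44. AY172581.18, AY172581.10 and AY172581.7 were the 3 members that DESeq2 called in each of these contrasts, which share the FC libraries. In FHE against FC they were at -0.08 to -0.20, with adjusted p of 0.658 to 0.888 from edgeR, while the coding genes were at 1.39 to 2.75. Other non-coding members lay outside the coding range too. In FCE against FC a tRNA gene outside the cluster was at -1.18 and the larger rRNA gene, AY172581.24, at -0.47. In FHE against FC AY172581.24 was at 0.45.

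For AY172581.7 the level was 23.6, 23.8 and 32.4 CPM in FC1, FC2 and FC3, 12.3, 14.4 and 13.5 in FCE1, FCE2 and FCE3, 13.7 and 13.4 in FH1 and FH3, and 25.5 and 20.9 in FHE2 and FHE3. FC was above FCE and FH without overlap, and FHE overlapped FC. As a sum, the 4 genes had 139 and 164 counts per 1000000 mitochondrial counts in FHE2 and FHE3, the lowest of the 22 libraries. FC1, FC2 and FC3 had 635, 570 and 828, FCE1, FCE2 and FCE3 had 338, 244 and 628, and FH1 and FH3 had 550 and 779. In muscle the sum was 809, 809 and 810 in MC1, MC2 and MC3, above the 402 to 763 of the other 9 muscle libraries. The 4 genes were chosen after their values were seen, and how often other sums separate muscle groups was not counted.

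**Figure D5:**
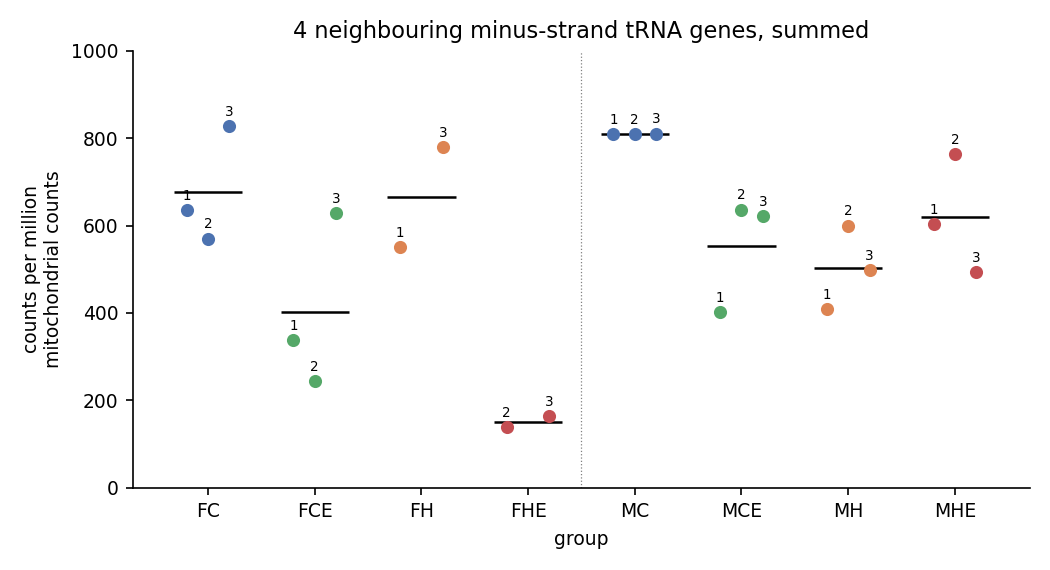
Summed counts of 4 neighbouring minus-strand tRNA genes per 1000000 mitochondrial counts (y axis) in each library by group (x axis), with group means as bars. FHE is lowest at 139 and 164, MC is at 809 to 810, and the other groups range from 244 to 828.

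In muscle no member was called in any treatment contrast and the groups of each contrast overlapped in the TMM-scaled level of every member. Of all 12421 genes, the share without overlap was 8.09% for MCE, 14% for MH and 13% for MHE relative to MC, and 8.99% and 10.3% for MHE relative to MH and MCE. Against MC, the coding median was -0.08 for MCE, 0.20 for MH and -0.16 for MHE. MHE had a coding median of -0.29 against MH and of -0.11 against MCE. edgeR called 0 of 37 members in each. Of all genes it called 0.00805%, 0.0403% and 0.105% in MCE, MH and MHE against MC, 0.00805% in MHE against MH and 0% in MHE against MCE, and 0 members were at an unadjusted p under 0.05, against 3.09%, 8.42%, 5.77%, 3.74% and 3.58% of all genes in the same order. DESeq2 also called 0 members in these contrasts, and 0.0484%, 1.05%, 0.331%, 0.0403% and 0.113% of all genes. The interaction of exercise and oxygen had a coding median of -0.24, 1 member at an unadjusted p under 0.05 against 3.82% of all genes, 0 called by edgeR or DESeq2, which called 0% and 0.105% of all genes. Single libraries decided the direction: the median of MH against MC ranged from -0.75 without MH3, the library with the highest mitochondrial share, to 0.80 without MC2, the highest of MC. For Mt-co1 the level was 281582, 633701 and 159562 CPM in MC1, MC2 and MC3, and 251422, 154283 and 677473 in MH1, MH2 and MH3. The spread within each group was thus wider than the difference between both groups, which was 0.01 on the log2 scale with an SE of 1.03.

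Between the tissues, all 37 members were called higher in muscle by edgeR in the fit of all 22 libraries with treatment as covariate, where 58.6% of all 13797 genes were called in either direction and 62.6% were at an unadjusted p under 0.05. DESeq2 called the same 37, and 62.5% of all genes. The coding median was 6.43 on the log2 scale, beside -0.09 for all genes tested. Mt-nd5 was highest at 7.58 (SE 0.64, adjusted p = 1.64e-09 from edgeR), followed by Mt-nd6 at 7.11 (SE 0.60), and Mt-atp6 was lowest at 4.32 (SE 0.72, adjusted p = 2.43e-05). The rRNA genes were at 6.52 and 6.08, and the tRNA genes at 5.54 to 7.37. These values are relative to the typical nuclear gene. On library totals without TMM, the median of all genes moved to -3.66 and the coding median to 2.56, 36 members were called, and Mt-atp6 was at 0.50 with an adjusted p of 0.237. The direction held for all 37 members under both scalings.

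The FHE against FH difference was larger in fat than the MHE against MH difference in muscle for all 37 members in the joint fit, with a coding median of 3.09 for the fat value minus the muscle value. edgeR called 0 of 37, where 0% of all genes were called, 26 were at an unadjusted p under 0.05 against 11.1% of all genes, and the smallest adjusted p was 0.164 (AY172581.20, difference 3.66, SE 0.79). DESeq2 called 13, and 2.57% of all genes. The difference between the tissues thus did not pass the threshold in edgeR.

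The nuclear genes that serve the mitochondrial genome were read from 3 lists. The transcription and replication list held 20 genes, among them Polrmt, the mitochondrial RNA polymerase, Tfam and Tfb2m, its initiation factors, Ssbp1, which coats single-stranded DNA, and the coactivator Ppargc1a. Another 25 genes process or stabilise mitochondrial RNA, such as Lrpprc and Slirp, which protect mRNAs, Elac2 and Prorp, which cut out tRNAs, and Grsf1. The third list held 49 nuclear subunits of complexes I, III, IV and V. edgeR called 0 genes of all 3 lists in each treatment contrast of both tissues, where 0 to 15 genes of a list were at an unadjusted p under 0.05, beside 3.09% to 20.1% of all genes. Calls of list genes by DESeq2 were not counted.

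In FHE against FH the list medians were 0.35 for transcription and replication (16 of 20 higher), 0.29 for RNA processing (16 of 25 higher) and 0.80 for the nuclear subunits (46 of 47 tested higher), beside -0.07 for all genes and 2.78 for the mitochondrial coding genes. At an unadjusted p under 0.05 were 8 of 20, 3 of 25 and 15 of 47 genes, which is 40%, 12% and 31.9% beside 16.8% of all genes, so that the RNA processing list lay below the share of all genes. Uqcrb, a subunit of complex III, was at 106 and 97.2 per 1000000 nuclear counts in FHE2 and FHE3, 43.9 and 22 in FH1 and FH3, 56.6, 53.0 and 61.4 in the FCE libraries and 54.3, 40.6 and 35.6 in the FC libraries. Against FH it differed by 1.76 (log2, SE 0.44), at an adjusted p of 0.202 in edgeR. Cox6c and Ndufa5 followed with 1.29 (SE 0.35) and 1.51 (SE 0.44). Ssbp1 was at 22.5 and 23.4 in FHE2 and FHE3 and at 11.7 and 17.2 in FH1 and FH3, a log2 difference of 0.91 (SE 0.26) with 0.208 as edgeR's adjusted p, followed by Tfb2m at 0.94 (SE 0.27) and Mterf3 at 0.67 (SE 0.26). The 3 genes of the RNA processing list were Slirp at 1.05 (SE 0.30), Trmt10c at 0.71 (SE 0.26) and Mrm2 at 1.01 (SE 0.43). Summed per 1000000 nuclear counts, the nuclear subunits were at 13003 and 12094 in FHE2 and FHE3, inside the FC range of 9089 to 13890, and at 12039 and 5886 in FH1 and FH3. The nuclear subunits of FHE thus overlapped those of FC, where the mitochondrial coding genes did not.

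In FHE against FC the medians were 0.46, 0.09 and 0.32 in the same order. The smallest p of the subunit list was that of Cox6a2, an isoform of complex IV found in heart and skeletal muscle, at 0.299 per 1000000 nuclear counts in FHE2 and 442 in FHE3, 0.0579 to 0.442 in FC and 309 to 955 in muscle. Its FHE value rested on FHE3, the library with muscle fibre transcripts. Uqcrb was at 1.22 (SE 0.38) and Cox8b, another muscle isoform, had no count in FHE2 and 25.5 per 1000000 nuclear counts in FHE3.

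Between the tissues the lists did not share the one direction of the mitochondrial genes. The share of genes called in either direction was 35% for transcription and replication, 44% for RNA processing and 51.1% for the nuclear subunits, in each list below the 58.6% of all genes. In transcription and replication 7 of 20 genes were called higher in muscle and 0 lower: Gabpa, Ssbp1, Ppargc1a, Esrra, Tfb1m, Mterf1 and Tfb2m, at log2 fold changes of 0.46 to 2.94. Ppargc1a was the highest of them (SE 0.56, edgeR adjusted p = 0.000113). In RNA processing Slirp (0.80) and Fastk (0.58) were called higher, and Grsf1, Ptcd1, Rexo2, Hsd17b10, Mrm1, Prorp, Elac2, Mtpap and Fastkd3 were called lower, at -0.49 to -1.20. Of 47 nuclear subunits tested, 14 were called higher and 10 lower. Higher were Cox8b, Atp5mc1, Ndufv2, Ndufa5, Cox7b, Cox6a2, Ndufs7, Cox7c, Ndufs3, Ndufa6, Atp5pd, Uqcrc2, Ndufb5 and Ndufs8, led by Cox8b at 8.74 (SE 1.27) and Cox6a2 at 7.89 (SE 1.62). Among the lower were Cox4i1, Ndufa10, Atp5f1b, Uqcrc1, Ndufb6, Ndufa4, Atp5mc3, Ndufv1 and Ndufb8, led by Cox4i1 at -0.87 (SE 0.18). The list medians were 0.11, -0.32 and 0.12, beside 6.43 for the mitochondrial coding genes and -0.09 for all genes tested. The mitochondrial genes were thus far higher in muscle than in fat while the nuclear subunits of the same complexes, relative to typical nuclear genes, had a median near that of all genes, with calls in both directions.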

How the data were processed

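RNA of epididymal fat and gastrocnemius was sequenced by the authors from stranded TruSeq mRNA libraries on an Illumina instrument, and HISAT2 placed the reads on the rat genome as annotated in Ensembl release 99. FastQC and Trimmomatic are named in the submitters' processing notes. The counting program, its strand setting, the versions and the name of the genome build are not given in the sources used here. The authors deposited 1 table with whole-number read counts and TPM for each library. TPM, as deposited, is scaled to a total near 1000000 per library after division by gene length. The 22 FPKM columns were not used. No pair of libraries held identical counts.

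Shares of total counts and of mitochondrial counts were taken from the deposited counts per library with Python 3.11.15 and pandas 2.3.3, with Wilson intervals at a level of 0.95 from scipy 1.17.1. Intervals and the limit of 3 counts set for a count of 0 cover counting error only. Sums and ratios over members were described without a test. All genes were fitted with edgeR 4.0.16 in R 4.3.3 (TMM, filterByExpr by group, quasi-likelihood F test, Benjamini-Hochberg adjustment, called under 0.05), per tissue with 1 mean per group, over all 22 libraries with treatment as covariate for the tissues, and over the 8 groups for the difference between tissues. The fits were tested on simulated counts first. There the fat fit of FHE against FC called 0% of the genes changed 2-fold and 14% of those changed 4-fold. The muscle fit of MHE against MC called 9% and 78%. A missing call by edgeR in fat is therefore weak evidence of no change.

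DESeq2 1.42.0, library totals without TMM, TMM from nuclear genes, other count filters, a replicate block and omission of each library were the alternatives. No source states what a shared replicate number marks, and the same-numbered libraries did not all deviate together in either tissue, so the main fits have no block. The members and lists were chosen with earlier results of these data known. Of the list genes, 172 matched by symbol, 12 by an older symbol and 12 not. Named were every coding and rRNA gene by role, the 3 tRNA genes with the highest mean share in each tissue, up to 8 called members, neighbouring pairs, and of the nuclear lists every called gene and up to 3 with the smallest p in a contrast described. The cluster of 4 tRNA genes, AY172581.20, Mt-cox3 as a reference, and the levels of Cox6a2 and Acta1 were chosen after their values were seen. No sequence of the mitochondrial genome was used here. Of the nuclear subunits called, 1 is not reported here by name.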

Additional observations from a re-analysis of the deposited data

How the results depend on the processing

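Against FC, DESeq2 called 3 members for FCE, 3 for FH and 24 for FHE. For FHE it called 24 against FH and 20 against FCE, with 17 for the interaction in fat and 13 for the difference between the tissues, out of 66, 151, 1724, 996, 470, 63 and 350 genes called in all in this order. In muscle it called 0 members and 6, 107 and 41 genes for MCE, MH and MHE against MC, 5 and 14 for MHE against MH and MCE, and 13 for the interaction. For FHE, library totals without TMM gave 13 members against FH, 1 against FCE and 8 against FC, with 2799, 183 and 1581 genes. The median of all genes was then -0.94, -0.57 and -0.62, and the coding median 1.96, 1.49 and 1.66. AY172581.24 reversed in FHE against FC, from 0.45 to -0.13 without TMM, with no call in either fit. In muscle 3, 13, 5, 4, 2 and 7 genes were called without TMM, in the order just given. In FHE against FC, 1 member (24 genes) was called with no filter on low counts and 7 of 25 (98 genes) with at least 5 CPM in 2 libraries. With no filter 2, 57, 23, 2, 4 and 4 genes were called in muscle and 1 for the difference between the tissues, with the stricter one 7 in MHE against MC and 1 for the interaction. TMM from the nuclear genes alone left every count of called members as reported. Over all alternatives other than omissions, 71 counts of members stayed within 1.5 times and 13 did not, and 330 of 408 named values stayed on their side of the threshold or, for Mt-atp6 in the contrasts of FHE, got no adjusted p from DESeq2, with 76 passing it and 1, Mt-atp6 between the tissues, losing it.

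With the replicate number as a block, 8 members and 444 genes were called in FHE against FC, 1 gene in FHE against FCE, and 2 and 4 genes in MH and MHE against MC. In the other contrasts the count of called members was that of the unblocked fit. The correlations of same-numbered libraries ran from -0.41 to 0.52 in fat and from -0.19 to 0.36 in muscle, with 9 of 12 and 5 of 18 over 0.1. Between same-numbered fat and muscle libraries of a treatment they ran from -0.09 to 0.22, with 7 of 10 over 0.1. In fat 7 of 10 libraries and in muscle 4 of 12 correlated best with their own number, which for fat is a hint from the data, not the design, of something shared.

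When each library was left out, 0 to 3 members were called in FHE against FC (3 without FCE2: Mt-nd4l, Mt-nd4 and Mt-nd6) and 0 to 1 for the difference between the tissues (1 without FHE2). In the remaining contrasts of the treatments the count stayed at 0, and between the tissues at 37. The coding median in FHE ran from 2.72 to 3.18 against FH, 1.63 to 2.80 against FCE and 2.10 to 2.38 against FC, and that of FH against FC from -0.92 to -0.48. In muscle each contrast crossed 0: against MC the median ran from -0.63 to 0.59 for MCE, -0.75 to 0.80 for MH and -0.62 to 0.47 for MHE, and for MHE from -0.75 to 0.57 against MH and -0.59 to 0.43 against MCE. On deposited TPM the mitochondrial share was 24.8% in FC, 24.2% in FCE, 18.5% in FH and 55.3% in FHE. Without the 20 highest nuclear genes it was 18.3% in FC, 12.3% in FH and 46.4% in FHE, and without Mt-atp6 14.6% in FC and 38.4% in FHE. The Mt-atp6 share on TPM was 20.4% in FHE, and in muscle 3.74% for MC, 4.23% for MCE, 4.01% for MH and 3.93% for MHE. FHE had the highest mean of the fat groups on each of these scales. FH had the lowest mitochondrial share, and FCE the lowest Mt-atp6 share on TPM, 9.90%. The causes were not tested. FH and FHE held 2 libraries each, and a muscle library as few as 841153 nuclear counts, which limits the precision of these contrasts.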
